A study of Mus musculus with 8 samples.

Results

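Palmd, Tpbgl, Ackr3, Shld2 and Mettl7b are 5 little-studied genes of the glucagon response of mouse hepatocytes, chosen by their measured rise in signal with glucagon on the arrays described here. They are 5 of the 13845 genes tested. Each has a single probe set to which the annotation of the MoGene 2.0 ST array gives only that symbol, and all 5 cleared the filter on low signals on all 8 arrays. For this reason their glucagon differences are given as a description and were not tested. What was tested is their response to the second agent, the difference between the 2 experiments, and the behaviour of related and neighbouring genes that the choice did not use.

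Primary hepatocytes of male C57Bl6J mice were exposed for 6 h to glucagon (100 nM) with GW4064 (2 µM), to glucagon alone, to GW4064 alone, or to the solvent DMSO. All 4 groups were kept in low-glucose medium with 100 nM dexamethasone, a synthetic glucocorticoid, so each group, DMSO included, carried that hormone. Each group has 2 arrays, from experiment 1 and experiment 2, and each experiment used hepatocytes pooled from 3 mice, so n = 2 cell pools per group and no value belongs to a single animal. The values are log2 signals, on which a difference of 1 is a doubling, and the number of arrays limits their precision.

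Glucagon is the fasting hormone of the pancreas. It binds a receptor on hepatocytes that raises cyclic AMP, which activates protein kinase A and, through transcription factors such as CREB, a programme of glucose production and amino acid use. GW4064 activates FXR, the nuclear receptor for bile acids. The 5 genes have unlike products. Palmd encodes palmdelphin, a protein of the paralemmin family, whose members lie at membranes and the cytoskeleton, and in humans the gene is a known risk locus for aortic valve stenosis. Tpbgl encodes a protein resembling the trophoblast glycoprotein Tpbg, a membrane protein with leucine-rich repeats. Ackr3 encodes an atypical chemokine receptor that binds Cxcl12 and Cxcl11, recruits arrestin rather than signalling through G proteins, and removes its ligands from the surroundings. Shld2 encodes a subunit of shieldin, the complex that protects broken DNA ends from resection. Mettl7b encodes a methyltransferase of the endoplasmic reticulum and lipid droplets, and the human enzyme methylates thiols.

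The stretches upstream of the annotated starts show how unlike these genes also are in sequence. RefSeq promoter sequences (build GRCm38.p6) were at hand for 4 of the 5 genes, Palmd being the exception, and the 250 bases before the start are printed 5′ to 3′ on the gene's strand. Capitals mark matches to any of the motifs searched.
Tpbgl (chr7:99627104-99627353, minus strand): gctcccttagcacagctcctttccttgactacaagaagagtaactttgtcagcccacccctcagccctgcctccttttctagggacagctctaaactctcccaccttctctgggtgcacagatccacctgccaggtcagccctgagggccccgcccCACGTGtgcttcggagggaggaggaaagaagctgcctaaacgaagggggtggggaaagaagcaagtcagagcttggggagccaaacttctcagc
Ackr3 (chr1:90203730-90203979, plus strand): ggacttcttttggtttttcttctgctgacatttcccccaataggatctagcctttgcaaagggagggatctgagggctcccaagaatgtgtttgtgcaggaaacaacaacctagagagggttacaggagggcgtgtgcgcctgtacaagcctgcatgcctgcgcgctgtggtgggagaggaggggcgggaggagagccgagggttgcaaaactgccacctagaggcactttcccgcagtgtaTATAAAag
Shld2 (chr14:34310518-34310767, minus strand): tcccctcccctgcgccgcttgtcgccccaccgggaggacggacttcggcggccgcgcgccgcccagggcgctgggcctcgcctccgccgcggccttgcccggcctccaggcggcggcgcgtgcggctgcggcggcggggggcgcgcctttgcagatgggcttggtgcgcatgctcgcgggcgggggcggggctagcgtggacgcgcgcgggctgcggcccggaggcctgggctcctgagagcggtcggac
Mettl7b (chr10:128960989-128961238, minus strand): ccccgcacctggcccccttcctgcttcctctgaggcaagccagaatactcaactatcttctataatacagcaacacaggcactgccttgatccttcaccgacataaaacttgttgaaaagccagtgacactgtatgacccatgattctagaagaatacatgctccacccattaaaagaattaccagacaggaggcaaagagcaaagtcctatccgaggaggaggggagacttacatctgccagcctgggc
The full cyclic AMP response element TGACGTCA, to which CREB binds, was found in none of the 4 windows, against 1.55% of all 32851 windows of the same length. Its 5-letter core TGACG, contained in the full site and searched on both strands like every motif, was in none of the 4 either, against 17.8% of all windows. The E-box CACGTG was in the Tpbgl window, with its first base 94 bases before the start, and in 6.02% of all windows. A match to the TATA box letters TATAAA was in the Ackr3 window, its first base 8 bases before the start, and in 12.4% of all windows. Whether any of these matches acts in the promoter was not tested. No match in the 4 windows was found for the forkhead core TGTTTAC (3.17% of all windows), the extended ERR half-site TCAAGGTCA (0.387%), the C/EBP palindrome TTGCGCAA (0.164%) or the FXR inverted repeat (0.00609%). Base composition differed widely: G and C made up 81.2% of the Shld2 window, 57.6% of the Tpbgl window, 54% of the Ackr3 window and 49.2% of the Mettl7b window, with a median of 52.4% over all windows. The Shld2 window held 41 CG pairs, and the other 3 held 3 to 7.

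Array medians lay between 3.42 and 3.57. The GW4064 array of experiment 2 stood somewhat apart: its correlation with each other array was 0.975 to 0.985, while the other 7 correlated among themselves at 0.976 to 0.997. On that array the olfactory and vomeronasal receptor probe sets, which are dim here, had a median of 3.25, against 2.95 to 2.98 on the others, so the GW4064 effects, the experiment differences and the rises with GW4064 present are also given without it. The filter level (the 40th percentile of each array) was 3.13 to 3.27. Of the cell type markers, 9 of 9 hepatocyte markers with a probe set passed the filter, and their median signal was 11.1 to 11.8 over the arrays. Median signals of the markers of Kupffer cells (7 of 8 passed), stellate cells (5 of 10), cholangiocytes (3 of 6) and lymphocytes with neutrophils (4 of 7) were 2.88 to 3.25, at about the filter level. Some markers on these lists were brighter than their medians. Among them were Cd68 (10.09 to 10.82 over the arrays), Sox9 (5.43 to 7.88), Reln (5.14 to 6.25) and Dcn (4.69 to 5.72). Sox9 differed by -1.32 with glucagon on average (limma adjusted p = 0.133). Markers of sinusoidal endothelium were higher, with 8 of 10 passing (Clec4g and Tek did not) and a median of 3.89 to 4.66. The brightest of them were Lyve1 (6.19 to 7.57 over the arrays) and Cdh5 (6.15 to 6.94).

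**Figure D1:**
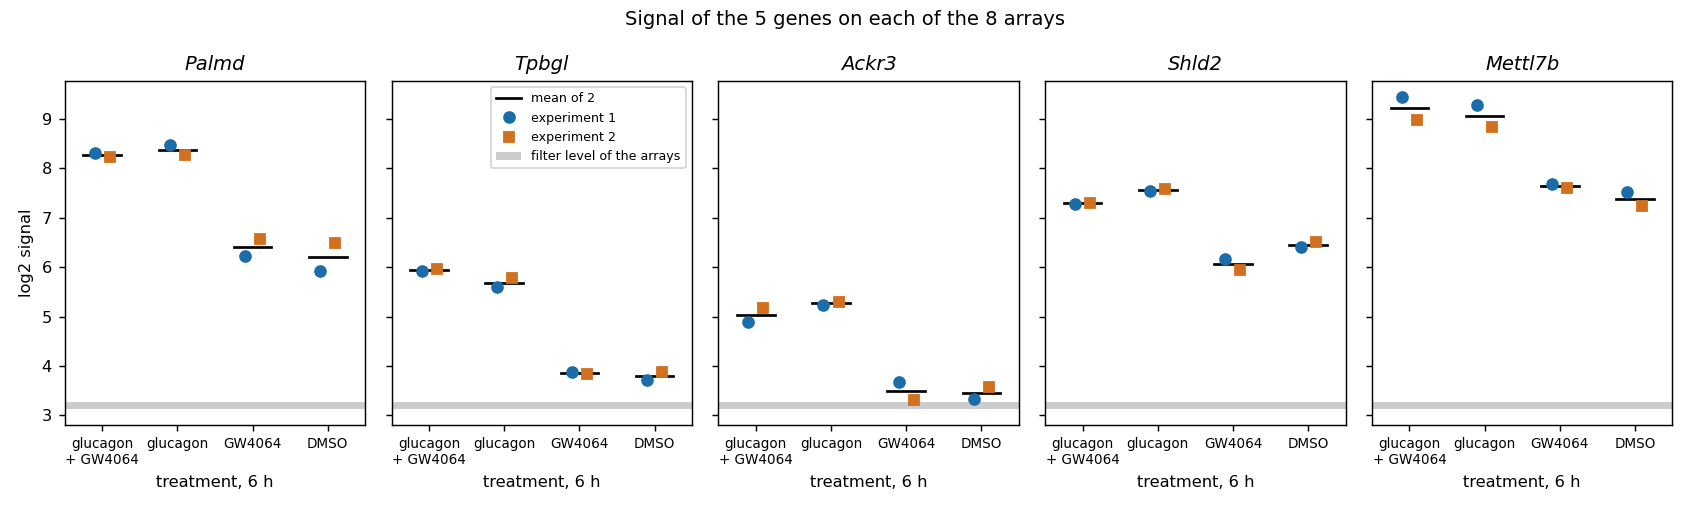
Log2 signal of each gene (vertical axis) on the 8 arrays, by treatment (horizontal axis). Circles are experiment 1, squares experiment 2, black bars the mean of the 2 arrays, and the grey band the filter level of 3.13 to 3.27. In every panel the 4 arrays with glucagon lie above the 4 without it, and heights are not comparable between genes because probe sets differ.

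Palmd had the largest difference of the 5 with glucagon alone. Its signal was 8.48 and 8.27 with glucagon in experiments 1 and 2, against 5.93 and 6.49 with DMSO. With both agents it was 8.32 and 8.23, against 6.23 and 6.57 with GW4064. The 4 glucagon-treated arrays lay close together, all above the 4 others, among which the DMSO array of experiment 1 was lowest. The rise was 2.54 and 1.79 in the experiments without GW4064 (mean 2.17 ± 0.54, SD, n = 2; 4.49-fold) and 2.09 and 1.66 with it (mean 1.87 ± 0.30; 3.66-fold). In each setting the smaller value came from experiment 2, in which the level without glucagon was higher by 0.56 with DMSO and by 0.34 with GW4064. The glucagon and combined groups overlapped, and so did the GW4064 and DMSO groups.

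Tpbgl was the most even of the 5 in size of rise relative to its spread. It had 5.59 and 5.79 with glucagon, against 3.72 and 3.88 with DMSO, and 5.92 and 5.97 with both agents, against 3.88 and 3.83 with GW4064. Its 4 within-experiment differences lay between 1.87 and 2.14 (SD 0.13, n = 4 pairs), with means of 1.89 ± 0.03 without GW4064 (3.70-fold) and 2.09 ± 0.08 with it (4.26-fold). The combined arrays both lay above the glucagon arrays, whereas the GW4064 and DMSO arrays overlapped. Without glucagon the probe set lay 0.55 to 0.76 above its array's filter level, so the low side of this comparison is dim.

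Ackr3 was the dimmest on the side without glucagon. The receptor's signal was 5.24 and 5.30 with glucagon, against 3.33 and 3.56 with DMSO. With both agents it was 4.89 and 5.17, against 3.67 and 3.31 with GW4064. The 4 arrays without glucagon lay 0.04 to 0.55 above their filter levels, so its level there is barely above that of the dim probe sets, which limits what its fold can show. The rise was 1.91 and 1.73 without GW4064 (mean 1.82 ± 0.13, SD, n = 2; 3.53-fold), and 1.22 and 1.85 with it (mean 1.54 ± 0.45; 2.90-fold). Both combined arrays lay below both glucagon arrays, and the GW4064 and DMSO arrays overlapped. Since endothelial cells are a known site of Ackr3 expression, the endothelial markers were set beside it. None of the 8 tested passed, and their average differences with glucagon ran between -0.36 (Oit3) and 0.24 (Stab2), with a median of -0.01. The median of their signals was 4.43 and 3.98 with glucagon against 4.62 and 4.05 with DMSO, and 4.50 and 3.89 with both agents against 4.66 and 3.98 with GW4064. The part of these cells in the result was not tested. In bulk RNA, fewer cells of a type and less RNA per cell cannot be told apart.

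Shld2 had the smallest rise. Its signal was 7.54 and 7.58 with glucagon, against 6.40 and 6.50 with DMSO, and 7.29 and 7.31 with both agents, against 6.17 and 5.94 with GW4064. The differences were 1.13 and 1.08 without GW4064 (mean 1.11 ± 0.04, SD, n = 2; 2.15-fold) and 1.12 and 1.36 with it (mean 1.24 ± 0.17; 2.37-fold). None of the 4 treatments overlapped another: the order from the top was glucagon, both agents, DMSO and GW4064. Both GW4064 arrays were lowest of all 8, and both glucagon arrays highest.

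Mettl7b had 9.28 and 8.83 with glucagon, against 7.52 and 7.24 with DMSO. With both agents it had 9.46 and 8.99, against 7.69 and 7.61 with GW4064. These are rises of 1.75 and 1.59 without GW4064 (mean 1.67 ± 0.12, SD, n = 2; 3.19-fold) and 1.76 and 1.38 with it (mean 1.57 ± 0.27; 2.97-fold). The combined and glucagon arrays overlapped because experiment 2 was lower in both groups, and both GW4064 arrays lay above both DMSO arrays. Of the 9 hepatocyte markers 1 rose with glucagon on average, against 0.816% of all genes. It was Tat, the tyrosine aminotransferase gene (0.83, limma adjusted p = 0.0465). With the experiment as a block in the model 2 rose, against 2.67% of all genes. These were Tat (limma adjusted p = 0.0157) and Cps1 (0.46, adjusted p = 0.024, and 0.0624 without the block). The median of the 9 differences was 0.01, with Alb at -0.01, Ttr at 0.00 and Apoa1 at -0.04, and the part of these markers in the results was not tested.

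Among all tested genes these rises stood near the top, as their choice requires. Without GW4064 the differences ranked 14 (Palmd), 21 (Tpbgl), 26 (Ackr3), 32 (Mettl7b) and 87 (Shld2) of 13845, and with GW4064 present 22, 16, 40, 39 and 73 in the same order of genes. Without the GW4064 array of experiment 2, the rises with GW4064 present were 2.04 (Palmd), 2.06 (Tpbgl), 1.36 (Ackr3), 1.53 (Mettl7b) and 1.13 (Shld2). These set the mean of both combined arrays against the GW4064 array of experiment 1, so they mix in the difference between the experiments. Within experiment 1 alone the rises were 2.09, 2.04, 1.22, 1.76 and 1.12 in the same order. A difference above 1, which all 5 had in both settings, was found for 102 genes (0.737%) without GW4064 and for 125 (0.903%) with it. In 840 genes (6.07%) all 4 glucagon-treated arrays lay above all 4 others. The gap between the lowest array with glucagon and the highest without it was 1.71 for Tpbgl, 1.66 for Palmd, 1.22 for Ackr3, 1.14 for Mettl7b and 0.79 for Shld2. The glucagon difference with GW4064 minus that without it averaged 0.20 for Tpbgl (SE 0.18), 0.14 for Shld2 (SE 0.18), -0.10 for Mettl7b (SE 0.31), -0.29 for Ackr3 (SE 0.25) and -0.29 for Palmd (SE 0.30). It had the same sign in both experiments for Palmd (-0.46 and -0.13) and Tpbgl (0.17 and 0.24), and opposite signs for the other 3.

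**Figure D2:**
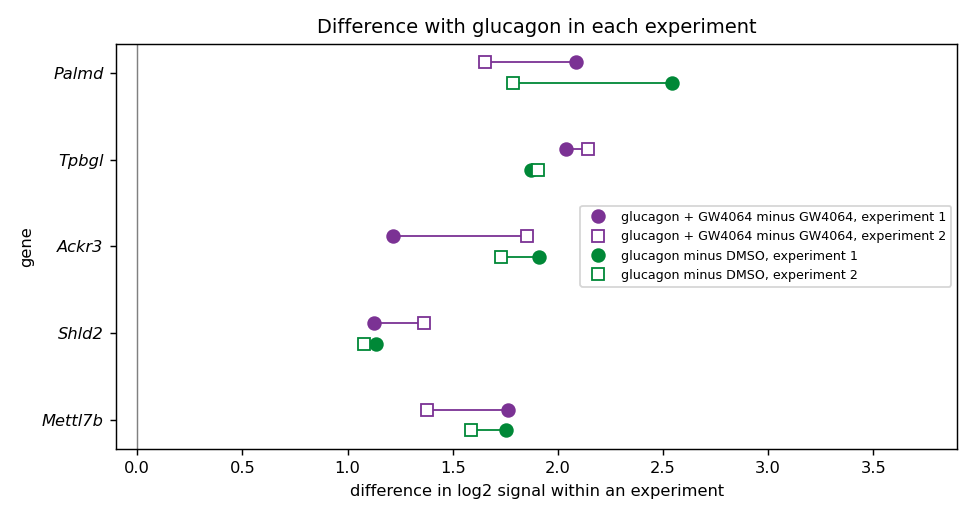
Difference in log2 signal with glucagon within each experiment (horizontal axis) for the 5 genes (vertical axis). Purple marks are glucagon + GW4064 minus GW4064 and green marks glucagon minus DMSO, filled circles are experiment 1 and open squares experiment 2, and all 20 differences lie above 1, from 1.08 (Shld2) to 2.54 (Palmd).

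The next comparison asked whether GW4064 moved the 5 genes, averaged over its presence with and without glucagon. This contrast is balanced over glucagon, so the choice of the genes did not use it. None of the 5 passed the test, and neither did any other gene: 0 of 13845 (0%) were called by limma with Benjamini-Hochberg adjustment, 216 had an unadjusted p below 0.05, and with the experiment as a block in the model, again 0 were called and 447 had such a p. Shld2 came nearest. It was lower with GW4064 in 4 of 4 pairs, with differences of -0.25 and -0.28 from glucagon alone and of -0.24 and -0.56 from DMSO, a pattern that 8.05% of all genes showed. Its means were 6.68 with GW4064 and 7.01 without it (difference -0.33, SE 0.09, 95% interval -0.54 to -0.12, limma adjusted p = 1). Without the GW4064 array of experiment 2, the Shld2 difference was -0.27.

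Mettl7b was higher with GW4064 in 4 of 4 pairs, by 0.16 to 0.37, as were 5.66% of all genes. Its means were 8.44 with GW4064 and 8.22 without it (difference 0.22, SE 0.15, 95% interval -0.14 to 0.58, limma adjusted p = 1). With the experiment as a block in the model the SE for Mettl7b was 0.09 (limma adjusted p = 0.987). Tpbgl differed by 0.15 (95% interval -0.06 to 0.37), Palmd by 0.05 (-0.31 to 0.40) and Ackr3 by -0.10 (-0.39 to 0.19), each with a limma adjusted p of 1. Without the GW4064 array of experiment 2, the effects were 0.24 for Mettl7b, 0.17 for Tpbgl, -0.04 for Palmd, which turned sign, and -0.01 for Ackr3. That fit, also used for Shld2 above, has no experiment term, so its sides hold the experiments in unequal parts. The intervals come from the model without the block, whose spread also holds the difference between the experiments. They leave room for differences of moderate size, which that model could not show with 8 arrays. Between the 2 groups that held glucagon, the arrays did not overlap for Tpbgl, Ackr3 and Shld2, 3 of the 5, and 23.3% of all genes were like this. Between GW4064 and DMSO the arrays did not overlap for Shld2 and Mettl7b, 2 of the 5, against 23.9% of all genes.

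**Figure D3:**
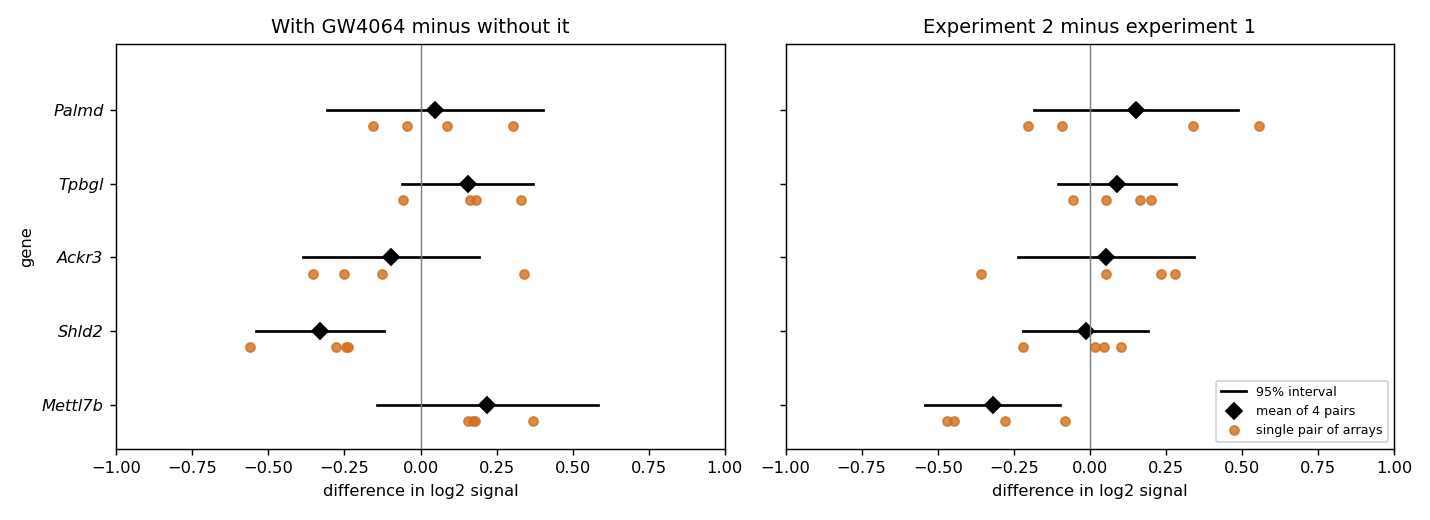
Difference in log2 signal (horizontal axis) of the 5 genes (vertical axis), with GW4064 minus without it on the left and experiment 2 minus experiment 1 on the right. Diamonds are means of 4 pairs, lines 95% intervals from limma, and orange circles the single pairs. Lines on the left come from the model without an experiment term and those on the right from the model with it, so their widths are not comparable. The interval leaves out 0 for Shld2 on the left and for Mettl7b on the right, and neither passed after adjustment.

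The 2 experiments, which are 2 separate pools of hepatocytes, were compared in a model that also held the treatment. Mettl7b was lower in experiment 2 under all 4 treatments, with differences of -0.47 with both agents, -0.45 with glucagon, -0.08 with GW4064 and -0.28 with DMSO. Its means were 8.17 in experiment 2 and 8.49 in experiment 1 (difference -0.32, SE 0.09, 95% interval -0.54 to -0.10). That difference did not pass (limma adjusted p = 0.101), although it did without either GW4064 array (-0.40, adjusted p = 0.0474), a fit from which the pair of that treatment drops out. Of all genes, 5.16% were called between the experiments, 366 (2.64%) higher and 349 (2.52%) lower in experiment 2, and 20.8% were lower in 4 of 4 treatments. The other 4 genes had differences of 0.15 (Palmd, 95% interval -0.19 to 0.48), 0.09 (Tpbgl, -0.10 to 0.28), 0.05 (Ackr3, -0.24 to 0.34) and -0.01 (Shld2, -0.22 to 0.19), with limma adjusted p-values of 0.54 to 0.936. Without the GW4064 array of experiment 2 they were 0.09 (Palmd), 0.14 (Tpbgl), 0.19 (Ackr3) and 0.06 (Shld2, which turned sign). Palmd was higher in experiment 2 by 0.56 with DMSO and 0.34 with GW4064 and lower with glucagon (-0.20) and with both agents (-0.09), so its mean difference covers opposite signs.

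The genes most like each of the 5 were sought by Pearson correlation of log2 signal over the 8 arrays. These correlations are descriptive, since the difference between arrays with and without glucagon is shared by many genes: 133 to 233 genes had r above 0.9 with each of the 5. Palmd was most like Pck1 (r = 0.994), the cytosolic phosphoenolpyruvate carboxykinase of gluconeogenesis, Cbs (0.992), the first enzyme of transsulfuration, and Jarid2 (0.992), a cofactor of Polycomb repressive complex 2. For Tpbgl the nearest were Slc25a15 (0.997), the mitochondrial ornithine carrier, Nr4a1 (0.992), an orphan nuclear receptor, and Pck1 (0.991). Ackr3 was closest to Aak1 (0.987), a kinase of clathrin adaptors, Pmvk (0.985), the phosphomevalonate kinase, and Cmip (0.985). Near Shld2 stood Xpo1 (0.997), the nuclear export receptor, Apon (0.986), an apolipoprotein gene, and Aak1 (0.984). Mettl7b had as neighbours in pattern Nudt4 (0.996), a diphosphoinositol polyphosphate hydrolase, Man2a1 (0.987), a Golgi mannosidase, and 1810012K16Rik (0.986). A like shape did not mean a like size: Pck1 was higher by 5.26 with glucagon alone, while Xpo1 was higher by 0.43 and Aak1 by 0.29. The 5 genes correlated with each other at r = 0.884 (Shld2 with Mettl7b) to 0.976 (Palmd with Tpbgl).

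Genes that act with or resemble the 5 were compared with and without glucagon as 6 lists, 63 genes in all. On the average over both settings, 2 rose and 1 fell (4.76% of the 63), against 1.32% of all genes (0.816% higher and 0.506% lower). With glucagon against DMSO alone 0 were called (0.116% of all genes, 0.108% higher and 0.00722% lower), and with GW4064 present 0 were called (0.166% of all genes, 0.159% higher and 0.00722% lower). With the experiment as a replicate block, counts for the average were 5 up and 2 down, against 5.76% of all genes (2.67% higher and 3.08% lower). For glucagon against DMSO they were 3 up and 1 down (0.925% of all genes, 0.643% higher and 0.282% lower), and with GW4064 present 1 up and 1 down (1.06%, 0.701% higher and 0.361% lower). The differences below are the average over both settings unless another is named.

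Of the paralemmin relatives of Palmd 0 of 3 tested genes passed, where 1.32% of all genes did, with a list median of 0.10 against -0.00 for all genes. Palm, the founding member, differed by 0.18, Akap2, an anchor of protein kinase A whose locus adjoins Palm2, by 0.10 and Palm3 by 0.05. Tpbg, the relative that gives Tpbgl its name, did not clear the filter, with a highest signal of 2.88. Of the 5 tested genes for other leucine-rich repeat proteins 0 rose and 1 fell, and the list median was 0.01. Lrrc8a, the obligatory subunit of the volume-regulated anion channel, fell. Its signal was 8.85 and 8.64 with glucagon, against 9.68 and 9.39 with DMSO, and 8.73 and 8.50 with both agents, against 9.58 and 9.52 with GW4064. No array with glucagon overlapped those without it (difference -0.86, SE 0.11, limma adjusted p = 0.0229). It was no longer called without the DMSO array of experiment 1 or without any of the 4 glucagon-treated arrays (adjusted p 0.0899 to 0.123). Lrg1 differed by 0.36, Lrrc3c by 0.17 and Lrrc8d by -0.06.

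Around Ackr3, 0 of 10 tested genes passed, with a list median of 0.12. Its ligand genes were at the filter level: Cxcl12, with a mean of 3.08 with DMSO, differed by 0.11, and Cxcl11, with a mean of 3.05, by -0.03. Cxcr4, the signalling receptor for Cxcl12, differed by 0.04. The arrestin genes Arrb1 and Arrb2 differed by 0.13 and 0.12, the receptor kinase genes Grk3 by 0.24, Grk5 by 0.03 and Grk6 by -0.20, and the related receptor genes Gpr182 and Ackr2 by 0.20 and 0.13. Ackr1, Ackr4 and Cxcr3 did not clear the filter.

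Of the DNA end protection genes with Shld2, 0 of 16 tested passed, and the list median was 0.08. Shld1, another shieldin subunit, differed by 0.54 (adjusted p = 0.188), Mad2l2, the subunit shared with DNA polymerase zeta, by -0.06, Trp53bp1, the chromatin reader upstream of shieldin, by 0.11 and Rif1, which links that reader to shieldin, by -0.36. Dna2, a nuclease that resects DNA ends, differed by 0.78 (SE 0.15, limma adjusted p = 0.0693) and was called with the replicate block (adjusted p = 0.0388). Atm, the kinase that signals double-strand breaks, differed by 0.55. The CST genes Ctc1, Stn1 and Ten1 differed by 0.05, 0.25 and 0.20.

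In the list of thiol methyltransferases and sulfide handling, 1 of 11 tested genes rose and 0 fell, with a median of 0.08. The gene that rose was Cbs (1.09, SE 0.13, limma adjusted p = 0.0153), which can also make hydrogen sulfide. It had 9.51 and 9.32 with glucagon, against 8.04 and 8.34 with DMSO, and 9.37 and 9.14 with both agents, against 8.14 and 8.46 with GW4064. Every array with glucagon lay above those without it. Cbs lost the call without the same 5 arrays as Lrrc8a (adjusted p 0.0661 to 0.0996). The closest relatives of Mettl7b were Mettl7a1, which differed by 0.29, and Mettl7a3, which differed by 0.37. Suox, the sulfite oxidase, differed by 0.55 (adjusted p = 0.103) and Tpmt, another thiol methyltransferase, by -0.04.

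Lipid droplet genes, set beside Mettl7b because its product can lie on droplets, had 1 riser and 0 fallers of 18 tested, and a median of 0.01. Hilpda, an inhibitor of adipose triglyceride lipase, had 7.83 and 7.82 with glucagon against 6.74 and 7.03 with DMSO, and 7.83 and 7.71 with both agents against 7.03 and 6.95 with GW4064. The groups with and without glucagon did not overlap (difference 0.86, SE 0.10, limma adjusted p = 0.0145), and the call was lost without the same 5 arrays (adjusted p 0.0712 to 0.0994). Of the 4 tested perilipin genes, which encode coats of the droplet, 3 passed in the model with the replicate block and 0 without it: Plin4 differed by 1.29 (adjusted p = 0.252, and 0.00357 in that model), Plin5 by 0.55 (0.506 and 0.0485) and Plin2 by -0.61 (0.166 and 0.0134). Plin3 passed in neither (0.48, 0.468 and 0.185), and Plin1 did not clear the filter.

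**Figure D4:**
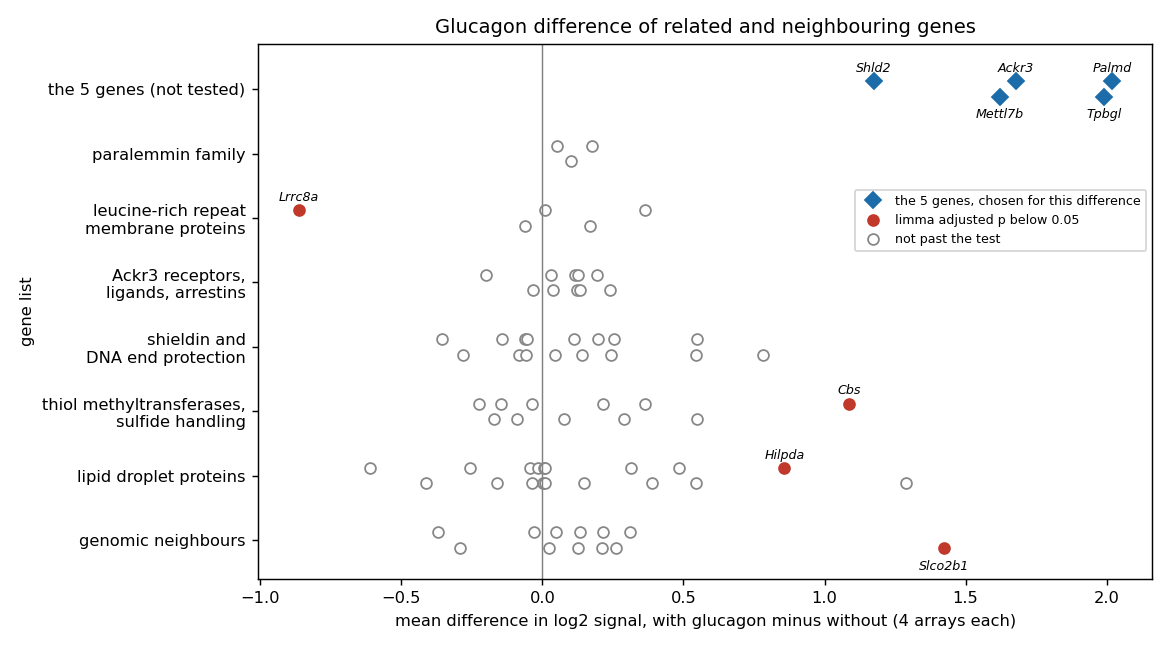
Average difference in log2 signal with glucagon minus without it (horizontal axis, 4 arrays on each side) for the 5 genes, the 6 lists and the genomic neighbours (vertical axis). Blue diamonds are the 5 genes, which were chosen for this difference, red circles genes past limma's adjusted p of 0.05 and open circles the rest. In the model without the replicate block, Lrrc8a (-0.86), Cbs (1.09), Hilpda (0.86) and Slco2b1 (1.42) are the genes that passed.

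Position in the genome was examined through the 2 nearest protein-coding genes on each side and any that overlap, by the RefSeq gene table. This set was chosen with the values of the 5 genes known. Of 21 such genes 12 were tested. On average 1 rose with glucagon and 0 fell, against 0.816% and 0.506% of all genes. With the replicate block 1 rose and 1 fell, Rdh5 near Mettl7b, against 2.67% and 3.08%. The gene that rose in both models was Slco2b1, the next gene after Tpbgl, which encodes an organic anion transporter. Slco2b1 had 5.79 and 5.65 with glucagon, against 4.40 and 4.76 with DMSO. With both agents it had 6.22 and 6.07, against 4.55 and 4.32 with GW4064. All arrays with glucagon lay above all others, and those with both agents were highest, as they were for Tpbgl. The average difference was 1.42 (SE 0.12, limma adjusted p = 0.00471), and it stayed past the threshold in 15 of 15 alternatives. With GW4064 present the difference was 1.71 (adjusted p = 0.0204), lost without the GW4064 array of experiment 2 or any of the 4 glucagon-treated arrays (adjusted p 0.0651 to 0.268). With glucagon alone it was 1.14 (adjusted p = 0.0857, and 0.037 with the replicate block). Over the 8 arrays Slco2b1 and Tpbgl correlated at r = 0.977. This value is descriptive, since both differed with glucagon and 192 genes had r above 0.9 with Tpbgl.

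On the other side of Tpbgl, the arrestin gene Arrb1 differed by 0.13 and the ribosomal protein gene Rps3 by -0.03, and neither passed. Next to Shld2 lies Glud1, the mitochondrial glutamate dehydrogenase, which had 11.23 and 11.17 with glucagon against 10.92 and 10.91 with DMSO, and 11.13 and 11.19 with both agents against 10.92 and 10.94 with GW4064. It was higher in 4 of 4 pairs without passing (0.26, SE 0.08, limma adjusted p = 0.191, and 0.0931 with the replicate block). Itga7, an integrin gene that overlaps Mettl7b in the gene table, differed by 0.21 (adjusted p = 0.505), against 1.62 for Mettl7b. Where genes overlap, which of them a probe reads is less certain. Frrs1 beside Palmd differed by 0.21 and Cops8 beside Ackr3 by -0.29, and neither passed.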

How the data were processed

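The authors deposited log2 signal values per probe set for 8 arrays. Per the labels' protocols, 300 ng of RNA entered labelling, 2 technical replicates were pooled per sample, and the values came from GeneSpring. Neither its version nor the background correction or normalization is given in the sources used here. The log2 scale was read from the values.

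Of 41345 probe sets, 23521 had 1 symbol. Those above their array's 40th percentile on at least 2 arrays were kept, and the highest mean was used per gene, leaving 13845 genes. Groups were compared with limma 3.58.1 in R 4.3.3 (1 mean per group, 4 residual degrees of freedom, empirical Bayes). Tests were two-sided, with Benjamini-Hochberg adjustment over all genes per contrast. For a tested difference, rise or fall means an adjusted p below 0.05. For the genes chosen by their glucagon difference, which was not tested, rise means the measured difference alone. The experiment contrast had an added experiment term. Steps were tested on simulated data.

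An experiment number marks a shared cell pool, so arrays are paired by it: deviations from group means correlated at 0.35 to 0.62 for all 6 pairs of groups. The main model for the treatment contrasts does not use this pairing, so differences between the experiments stay in its spread. The model with the experiment as a replicate block is given beside results that it changes. Genes named were the 5, their 3 nearest by correlation, and per list those called plus up to 3 with small p; some further list genes and the genomic neighbours were named after their values were seen. The members and lists were chosen with earlier results of these data known.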

Additional observations from a re-analysis of the deposited data

How the results depend on the processing

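Alternatives were the experiment as a replicate block or a random block, quantile normalization, no filter, a 60th percentile filter, eBayes with trend and robust settings, and each array left out; the block without the GW4064 array of experiment 2 was chosen after seeing the data. The 5 genes kept a rise with glucagon in all of these, which their choice on the same arrays largely fixed in advance, so it is no support for the rise. With arrays left out, the rise against DMSO was 1.89 to 2.44 for Palmd, 1.79 to 1.99 for Tpbgl, 1.704 to 1.937 for Ackr3, 1.06 to 1.16 for Shld2 and 1.45 to 1.89 for Mettl7b. These fits have no experiment term, so the ranges also hold the difference between the experiments. Within the experiments Mettl7b rose by 1.75 and 1.59. No member has another probe set, so that alternative could not be run.

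The average GW4064 effect had 0 calls in each alternative except the block without the doubted array, where 3 genes were higher. Small differences turned sign: for GW4064, Palmd lay between -0.092 and 0.186 with single arrays left out and at -0.016 with the block without the doubted array, where Ackr3 was at 0.039. Between the experiments, Shld2 was at 0.053 with quantile normalization and between -0.052 and 0.055 with arrays left out, and Ackr3 then lay between -0.024 and 0.188. Calls between experiments ranged from 20 to 386 higher and 6 to 342 lower with arrays left out, and 573 were lower with trend and robust settings.

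Over all genes the replicate block gave 128 calls in place of 16 for glucagon against DMSO, 147 in place of 23 with GW4064 present and 797 in place of 183 on average. For the listed genes, it gave 3 up and 1 down (glucagon against DMSO), 1 and 1 (with GW4064 present) and 5 and 2 (average). Without the doubted array as well these were 3 and 2, 1 and 1, and 8 and 4. The random block gave 2 up and 0 down against DMSO, 0 up and 1 down with GW4064 present, and 3 up and 2 down on average. With arrays left out, the average gave 0 to 5 up and 0 to 1 down, and with GW4064 present 0 to 2 up and 0 to 1 down. The cause of these changes was not tested. Only the fits with arrays left out had fewer arrays, while the block and the random block alone used all 8. Without the doubted array, 1 of the 3 most similar genes was kept for each of the 5, except Tpbgl with 2. The probe sets of Ackr3 and Tpbgl lie close to background without glucagon, which limits their folds.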

Other observations

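Beside Mettl7b, which was lower in experiment 2 without passing the test, lie 3 tested genes whose difference between the experiments had the same sign. Rdh5, a retinol dehydrogenase and the second gene on that side, was lower in experiment 2 by 0.81 (SE 0.07, limma adjusted p = 0.00536), with 5.23, 5.19, 5.56 and 5.54 in experiment 2 and 6.02, 5.96, 6.39 and 6.39 in experiment 1 for both agents, glucagon, GW4064 and DMSO. Bloc1s1, the nearest gene on that side, was lower by 0.41 (SE 0.07, adjusted p = 0.0333), and the overlapping Itga7 by 0.23 (SE 0.09, adjusted p = 0.185). Of all genes, 20.8% were lower in experiment 2 in 4 of 4 treatments and 2.52% were called lower, with a median difference of -0.02. A link to position in the genome was not tested. With glucagon Bloc1s1 differed by 0.02 and Rdh5 by -0.37 on average. Neither passed, and with the replicate block Rdh5 did (limma adjusted p = 0.0378). In the list of lipid droplet genes Plin4 was higher in experiment 2 by 1.16 (SE 0.12, adjusted p = 0.00848).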
